A study of Mus musculus with 8 samples.

Results

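The collagen alpha chains were followed in colon RNA of 8 mice with chemically induced colitis. Every gene of the deposited table whose Ensembl ID carries a mouse symbol made of Col, a number, the letter a and a number was taken, which gave 44 of 53465 genes. By the usual structural classes these were 11 fibrillar, 6 basement membrane, 9 FACIT (fibril-associated with interrupted triple helices), 6 beaded filament, 3 short chain network, 1 anchoring fibril, 4 transmembrane and 2 multiplexin chains, and 2 chains of other build. After a filter at a mean of 3 on the deposited log2 scale, 37 chains and 16380 genes in all were tested.

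Collagens are the chief structural proteins of connective tissue. Alpha chains wind into a triple helix, of which Col1a1 and Col1a2 together form type I, Col3a1 alone forms type III, and the type V chains join both in the same fibrils. Type IV chains build the sheet under the epithelium and around vessels and muscle cells, type VI chains build beaded filaments beside the cells, and FACIT chains sit on the surface of fibrils. In the gut wall, fibroblasts and smooth muscle cells make most fibrillar collagen, and inflammation of the colon is known to be followed by collagen deposition. The ornithine that arginase 1, the product of Arg1, splits from arginine can be turned into proline, an amino acid that collagen holds in large amounts.

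The 4 Arg1 ko mice carried a conditional Arg1 deletion, which the labels call cell-specific without naming the cell type or the Cre. The 4 wild type mice were littermates that kept Arg1. Both groups were of B6 background, aged 7 to 12 weeks and alike in age and sex. They drank 2.5% dextran sulfate sodium (DSS), which injures the colon epithelium, for a week, and then had plain water until day 10, so that every mouse analysed here had been given DSS. The comparison asked how expression differed between the genotypes. The labels call the tissue colon, while the protocol describes epithelial aggregates shaken loose with 30 mM EDTA. Defining markers of muscle and connective tissue were present at high levels, with mean regularised log2 values (rlog) over the libraries of 14.75 for Acta2 (smooth muscle actin) and 13.18 for Dcn (decorin, a fibroblast proteoglycan), beside 16.11 for the epithelial keratin Krt8.

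Arg1 (ENSMUSG00000019987, chromosome 10, 24915221 to 24927484 on GRCm38) was listed at 5.59, 5.57, 5.02 and 5.58 in wild type 1 to 4 and at 5.06, 4.87, 5.15 and 5.19 in Arg1 ko 1 to 4. Wild type 3 had a value between those of the ko libraries and is called the library labelled wild type 3 from here on. The group means were 5.44 ± 0.28 and 5.07 ± 0.14 (SD, n = 4 each), a difference of -0.37 (SE 0.15, exact two-sided permutation test over 70 assignments, p = 0.114, the smallest possible being 0.0286). In an rlog value the count is adjusted to the size of its library, taken to log2 and pulled in toward the gene's mean, most of all at low counts. No counts are kept, so depth is unknown, and weakly expressed genes show smaller differences than their counts would. Differences below are ko minus wild type in rlog units. The library medians of the tested genes ran from 8.59 to 8.65.

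None of the 37 tested chains passed the test over all genes (limma, Benjamini-Hochberg adjusted p under 0.05), as none of the 16380 genes did (0.0%). Higher in Arg1 ko at an unadjusted p under 0.05 were 13 of the 37 chains (35.1%), against 4.73% of all tested genes, and lower were none, against 4.37%. In 8 chains (21.6%) all 4 ko libraries lay above all 4 wild type libraries, against 2.36% of all genes, and in no chain did they all lie below, against 1.67%. The difference was above 0 in 29 of 37 chains (78.4%) and in 51.2% of all genes. The median difference was 0.23 over the chains and 0.01 over all genes, and without the library wild type 1 the median of the chains was 0.08. Without wild type 1 and 2, which leaves 2 wild type libraries, 8 chains were higher (against 6.28% of all genes) and Col23a1 and Col24a1 lower (against 6.8%) at an unadjusted p under 0.05, and their number with separate groups was again 8 on the higher side (against 11.5%) but 7 on the lower side (against 11.2%). This refit was added after the data were seen. As mean deviations from each gene's mean over the libraries, the chains stood at -0.33 and -0.27 in wild type 1 and 2. They stood at 0.12 in the library labelled wild type 3 and at 0.0 in wild type 4. Leaving out wild type 1 and 2 therefore lowers the mean difference of the chains by construction. Without wild type 4, 13 chains had separate groups on the higher side (against 3.75%). In bulk tissue, more cells of a type and more RNA per cell cannot be told apart.

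**Figure D1:**
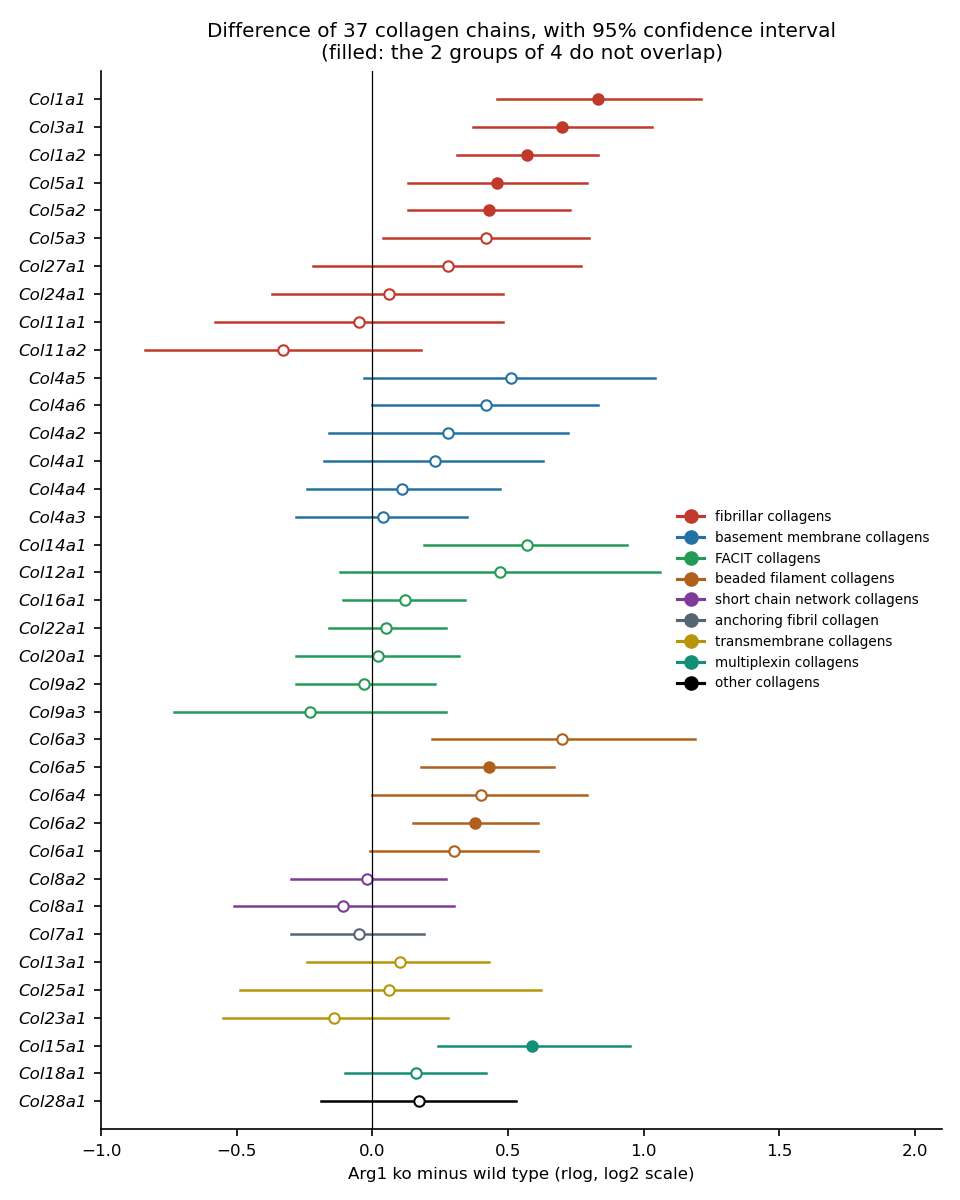
Arg1 ko minus wild type difference of each of the 37 tested collagen chains in rlog (log2) units, with the 95% confidence interval from limma and coloured by structural class; filled points mark chains whose groups do not overlap. The 8 filled points are fibrillar, beaded filament and multiplexin chains, from 0.38 for Col6a2 to 0.83 for Col1a1.

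The promoters of Col1a2, Col3a1 and Col4a5 are shown because these genes stand for a fibril chain partner, the chain of highest level and the basement membrane chain of largest difference. The letters are those of RefSeq on GRCm38.p6, in the direction of the gene, without bases that GENCODE counts as exon, and capitals mark any of 5 searched motifs on either strand. These were TATAAA (the TATA box), CCAAT (bound by NF-Y), GGGCGG (bound by Sp1), TGANTCA (bound by AP-1) and CAGAC (bound by Smad proteins). The windows are chr6:4505370-4505492 (+) for Col1a2, chr1:45311288-45311537 (+) for Col3a1 and chrX:141475169-141475384 (+) for Col4a5. That of Col1a2 lies inside the gene as GENCODE bounds it (from 4504814), as the RefSeq start is downstream of the GENCODE start.
Col1a2: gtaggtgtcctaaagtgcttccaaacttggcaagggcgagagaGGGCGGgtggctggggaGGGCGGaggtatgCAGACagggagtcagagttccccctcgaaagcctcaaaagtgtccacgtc
Col3a1: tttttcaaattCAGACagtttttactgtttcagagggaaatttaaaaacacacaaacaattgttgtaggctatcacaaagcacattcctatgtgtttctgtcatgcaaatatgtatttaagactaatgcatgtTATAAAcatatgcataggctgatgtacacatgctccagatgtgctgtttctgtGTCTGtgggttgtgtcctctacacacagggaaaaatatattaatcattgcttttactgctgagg
Col4a5: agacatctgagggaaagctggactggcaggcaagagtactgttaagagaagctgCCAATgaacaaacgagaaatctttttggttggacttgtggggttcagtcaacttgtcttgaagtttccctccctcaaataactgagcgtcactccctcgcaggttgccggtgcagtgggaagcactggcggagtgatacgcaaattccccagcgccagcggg
Col1a2 held GGGCGG at -205 and -188 and CAGAC at -175 from the RefSeq start, and Col3a1 held TATAAA at -117 and CAGAC at -239 and, on the other strand, at -64. Col4a5 held CCAAT at -196. Outside the printed stretches, Col1a2 held CCAAT at -109 and Col4a5 held GGGCGG at -30. The window of Col15a1, chr4:47207762-47208011 (+), was searched as well, held none of the 5 motifs and is not printed. Over 250 bases before the start, GGGCGG was found in 21 of 32 windows of tested collagen genes (65.6%) and in 32.7% of 32851 promoters in the table. The other motifs were found at 9.38% against 12.4% for TATAAA, 34.4% against 33.8% for CCAAT, 3.12% against 6.75% for TGANTCA and 43.8% against 42.2% for CAGAC. The collagen windows had a median GC share of 60.0%, against 52.4% for all promoters, and a match is a description of letters only. RefSeq promoters were available for 35 of the 44 genes, Col1a1 not among them, and the 32 windows came from 30 tested genes.

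The chains of types I and III were higher in every Arg1 ko library than in any wild type library. Col1a1, the alpha 1 chain of type I (ENSMUSG00000001506, chromosome 11, 94936224 to 94953042), was at 10.64, 10.71, 11.31 and 10.44 in the wild type libraries and at 11.51, 11.50, 11.76 and 11.66 in the ko libraries. The library labelled wild type 3 was the wild type library nearest to the ko values. The difference of 0.83 (SE 0.17, 95% interval 0.46 to 1.21) corresponds to 1.78-fold on this scale. In limma the adjusted p = 0.522 for Col1a1 and for each of the other 12 chains with an unadjusted p under 0.05.

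Col1a2, its partner in type I (ENSMUSG00000029661, chromosome 6, 4504814 to 4541544), was at 11.49, 11.51, 11.94 and 11.53 in wild type and at 12.15, 12.10, 12.27 and 12.22 in ko. The difference was 0.57 (SE 0.12, 95% interval 0.31 to 0.83). Col3a1, the only chain of type III (ENSMUSG00000026043, chromosome 1, 45311538 to 45349706), was at 12.42, 12.44, 12.84 and 12.09 in wild type and at 13.09, 13.01, 13.24 and 13.24 in ko, a difference of 0.70 (SE 0.15, 95% interval 0.37 to 1.03). In both genes, too, the highest wild type value came from the library labelled wild type 3. Wild type 4 was the lowest library for Col1a1 and Col3a1, and wild type 1 for Col1a2. Per kilobase of the longest transcript, Col3a1 was the highest of all collagens in both groups, at a log2 level of 9.97 ± 0.30 (SD, n = 4) in wild type and 10.67 ± 0.11 in ko.

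**Figure D2:**
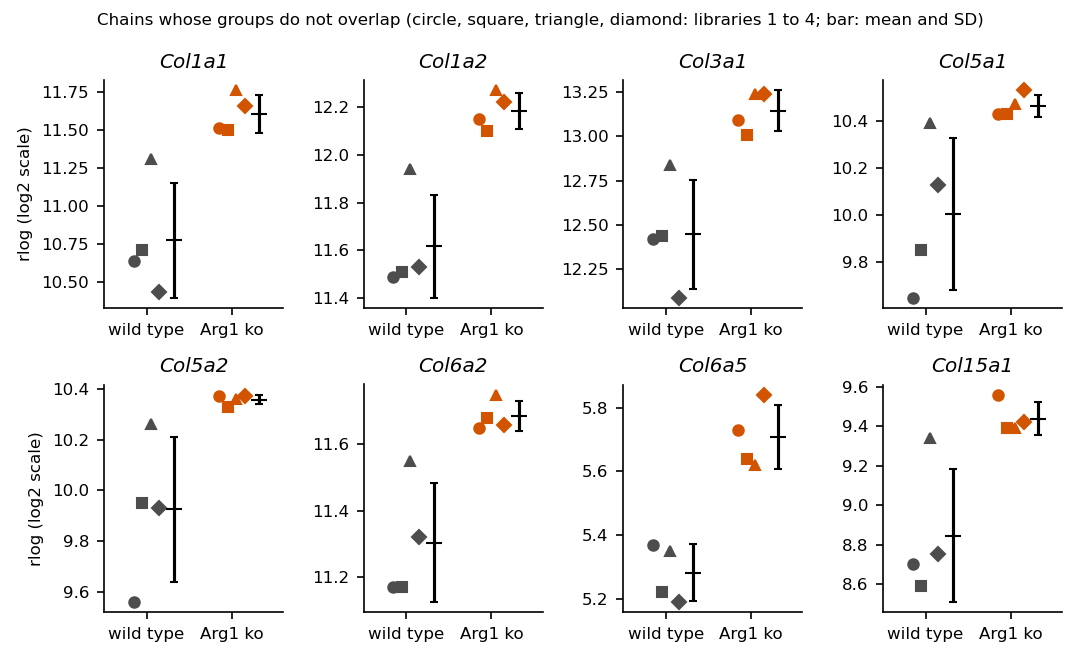
Rlog values (log2 scale, axes not starting at 0) of the 8 collagen chains whose groups do not overlap, for 4 wild type and 4 Arg1 ko libraries, with marker shapes for library 1 to 4 and bars for the mean and SD. In 7 of the 8 panels the highest wild type point is the triangle, the library labelled wild type 3, and in Col1a1 the wild type points span 10.44 to 11.31 against 11.50 to 11.76 in ko.

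The type V chains, which set the diameter of fibrils from within, lay higher in ko by smaller amounts. Col5a1 (ENSMUSG00000026837) was at 9.65, 9.85, 10.39 and 10.13 in wild type and at 10.43, 10.43, 10.47 and 10.53 in ko, a difference of 0.46 (SE 0.15, 95% interval 0.13 to 0.79). Col5a2 (ENSMUSG00000026042) was at 9.56, 9.95, 10.26 and 9.93 in wild type and at 10.37, 10.33, 10.36 and 10.37 in ko, a difference of 0.43 (SE 0.13, 95% interval 0.13 to 0.73). The ko values of Col5a2 spanned 0.04, while those of wild type spanned 0.70. In both genes the groups did not overlap, and the lowest library was wild type 1. Col5a3 was at 7.60, 7.84, 8.48 and 7.91 in wild type and at 8.30, 8.48, 8.37 and 8.36 in ko, where the library labelled wild type 3 reached the highest ko value (difference 0.42, 95% interval 0.04 to 0.80). Col5a2 and Col3a1 are neighbours, tail to tail and 24.6 kb apart.

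The rest of the fibrillar class did not share this pattern of separate groups. Col27a1 differed by 0.28 and Col24a1 by 0.06, and the type XI chains, which take the place of type V in cartilage fibrils, by -0.05 (Col11a1) and -0.33 (Col11a2), and all 4 intervals included 0. Without wild type 1 these differences were 0.08 for Col27a1, -0.11 for Col24a1, 0.21 for Col11a1 and -0.09 for Col11a2. Over the 10 tested fibrillar chains, 8 were higher and 2 lower, and the median difference was 0.43. On the higher side, 6 had an unadjusted p under 0.05 (against 4.73% of all tested genes) and 5 had groups that did not overlap (against 2.36%). On the summed level of the class, log2 values ran from 13.48 to 14.06 in wild type and from 14.22 to 14.39 in ko. Without wild type 1 and 2 the fibrillar median was 0.20 and Col5a1 differed by 0.21, Col5a2 by 0.27 and Col5a3 by 0.18, while Col1a1 differed by 0.73.

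The 5 tested type VI chains lay higher in ko on average, while Col6a6, below the filter, was at 2.73 ± 0.07 in wild type and 2.72 ± 0.03 in ko (SD, n = 4). Col6a2 (ENSMUSG00000020241, chromosome 10, 76595762 to 76623630) was at 11.17, 11.17, 11.55 and 11.32 in wild type and at 11.65, 11.68, 11.75 and 11.66 in ko, and its groups did not overlap (difference 0.38, SE 0.10, 95% interval 0.15 to 0.61). Col6a3 (ENSMUSG00000048126, chromosome 1, 90765923 to 90843971), the longest of the 3 classical type VI chains, was at 9.78, 10.15, 10.91 and 9.86 in wild type and at 11.05, 10.70, 10.90 and 10.87 in ko. Its ko values lay above wild type 1, 2 and 4, and only the library labelled wild type 3 reached them (difference 0.70, SE 0.22, 95% interval 0.22 to 1.19).

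Col6a5 (ENSMUSG00000091345), a weakly expressed relative of Col6a3, was at 5.37, 5.22, 5.35 and 5.19 in wild type and at 5.73, 5.64, 5.62 and 5.84 in ko (difference 0.43, SE 0.11, 95% interval 0.18 to 0.67). Here the library labelled wild type 3 did not stand nearer to ko than wild type 1, and the groups did not overlap. Col6a1, which assembles with Col6a2 and Col6a3, was at 11.20, 11.38, 11.76 and 11.84 in wild type and at 11.86, 11.84, 11.86 and 11.83 in ko, so that wild type 4 reached the lowest ko values (difference 0.30, 95% interval -0.01 to 0.61). Without wild type 1 and 2, Col6a1 differed by 0.05, Col6a4 by 0.10 in place of 0.40, and Col6a3 by 0.50. The median of the 5 tested beaded filament chains was 0.40, and all 5 were higher. Of these, 4 had an unadjusted p under 0.05, against 4.73% of all tested genes on the higher side.

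Col14a1 and Col15a1, of the fibril surface and the basement membrane zone, also had an unadjusted p under 0.05. Col14a1, a FACIT chain (ENSMUSG00000022371, chromosome 15, 55307750 to 55520803), was at 8.88, 8.74, 9.38 and 8.79 in wild type and at 9.62, 9.16, 9.59 and 9.68 in ko (difference 0.57, SE 0.17, 95% interval 0.19 to 0.94). Arg1 ko 2 lay below the library labelled wild type 3, and the other ko libraries lay above all wild type ones. Col15a1, a multiplexin of vessel and muscle basement membranes (ENSMUSG00000028339, chromosome 4, 47208161 to 47313167), was at 8.70, 8.59, 9.34 and 8.75 in wild type and at 9.56, 9.39, 9.39 and 9.42 in ko (difference 0.59, SE 0.16, 95% interval 0.24 to 0.95). Its groups did not overlap, and its ko values lay just above the library labelled wild type 3. Col18a1, the other multiplexin and the source of endostatin, was at 10.36, 10.58, 10.59 and 10.85 in wild type and at 10.60, 10.86, 10.75 and 10.79 in ko, a difference of 0.16 (95% interval -0.10 to 0.42).

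FACIT chains as a class had a median difference of 0.05, with 5 of 7 tested chains higher and 2 lower. Col12a1 was at 8.41, 8.92, 9.83 and 9.58 in wild type and at 9.66, 9.55, 9.60 and 9.83 in ko (difference 0.47, 95% interval -0.12 to 1.06). Its lower wild type values came from wild type 1 and 2 alone. Without them the difference, which is lowered by construction when the lowest wild type libraries are left out, was -0.05. Col16a1, another FACIT chain, was at 9.19, 9.23, 9.48 and 9.47 in wild type and at 9.44, 9.50, 9.49 and 9.41 in ko, where the difference of 0.12 was -0.01 without wild type 1 and 2. The cartilage chain Col9a3 was at 4.75, 3.73, 4.02 and 3.61 in wild type and at 3.76, 3.95, 3.60 and 3.91 in ko, a difference of -0.23 that was 0.02 without wild type 1.

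The basement membrane chains showed another order of libraries. Col4a1 (ENSMUSG00000031502, chromosome 8, 11198423 to 11312826), the alpha 1 chain of the common type IV network, was at 11.56, 11.99, 12.36 and 12.51 in wild type 1 to 4 and at 12.35, 12.37, 12.26 and 12.34 in ko. Its partner Col4a2 (ENSMUSG00000031503, chromosome 8, 11312805 to 11449287) was at 10.77, 11.39, 11.66 and 11.83 in wild type and at 11.70, 11.74, 11.60 and 11.72 in ko. In both, wild type 4 lay above all 4 ko libraries and wild type 1 and 2 below them. The differences were 0.23 (95% interval -0.18 to 0.63) and 0.28 (-0.16 to 0.72), and -0.10 and -0.06 without wild type 1 and 2.

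Col4a5 (ENSMUSG00000031274, chromosome X, 141475385 to 141689234), of the network found in kidney and around smooth muscle, was at 7.83, 8.34, 8.80 and 9.11 in wild type and at 9.18, 8.84, 8.98 and 9.10 in ko (difference 0.51, 95% interval -0.03 to 1.04). Col4a6, its partner around smooth muscle, was at 7.00, 7.42, 7.76 and 7.91 in wild type and at 8.01, 7.78, 7.96 and 8.02 in ko (difference 0.42, SE 0.19). Without wild type 1 and 2 these differences were 0.07 and 0.11. All 6 type IV chains were higher in ko on average, with a median of 0.25, in none did the groups fail to overlap, and their median was 0.05 with wild type 1 left out and -0.08 with wild type 2 left out as well.

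Wild type 1 was the lowest wild type library for 5 of the 6 type IV chains (against 33.1% of all tested genes). Wild type 4 was the highest for all 6 (against 4657 of 16380 genes). In the fibrillar class the library labelled wild type 3 was the highest of the wild type libraries in 8 of 10 chains (against 4414 of 16380 genes). Neither order was particular to its class. Among the lists compared below, wild type 1 was lowest in 5 of 6 pericyte markers, and wild type 4 was highest in 5 of 6. The library labelled wild type 3 was highest in 8 of 9 collagen receptors. As mean deviations from each gene's mean over the 8 libraries, type IV chains stood at -0.63, -0.26, 0.09 and 0.27 in wild type 1 to 4, while fibrillar chains stood at -0.26, -0.33, 0.14 and -0.22. In the ko libraries type IV chains stood between 0.05 and 0.21 and fibrillar chains between 0.14 and 0.23. Wild type 4 held more type IV RNA than the ko libraries and less fibrillar RNA than any of them.

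**Figure D3:**
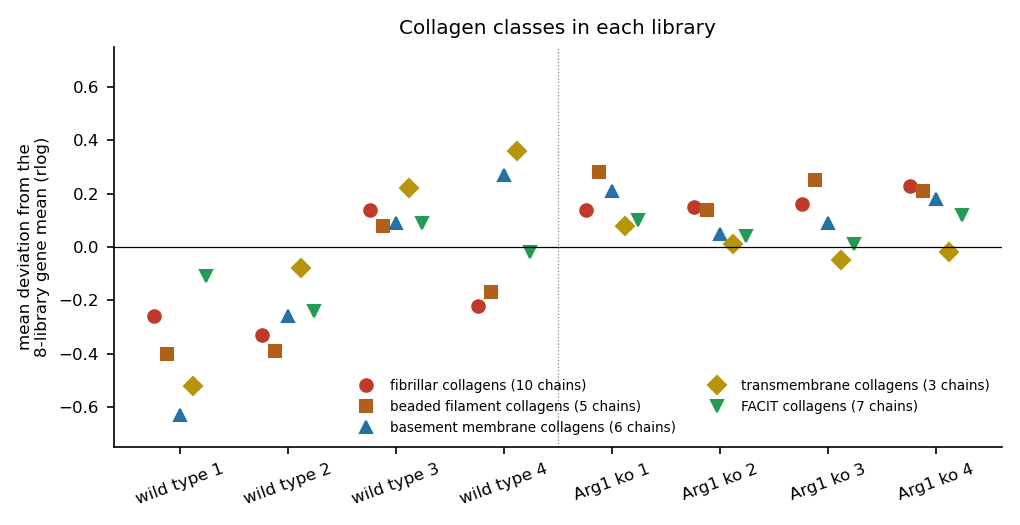
Mean deviation of the tested chains of 5 collagen classes from each gene's mean over the 8 libraries (rlog, log2 scale), by library, with 4 wild type libraries left of the dotted line and 4 Arg1 ko libraries right of it. Basement membrane chains have -0.63 for wild type 1 and 0.27 for wild type 4, whereas fibrillar chains are at -0.22 in wild type 4 and at 0.14 or above in all ko libraries.

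The 6 type IV genes lie in 3 head-to-head pairs. Col4a1 and Col4a2 share 22 bases at their 5′ ends, Col4a4 and Col4a3 are 71 bases apart, and Col4a6 and Col4a5 are 1.31 kb apart. The members of each pair had like differences, 0.23 and 0.28, 0.11 and 0.04, and 0.42 and 0.51. No source used here says whether reads were counted by strand, so reads of the stretch that Col4a1 and Col4a2 share cannot be assigned, and the same holds for exonic bases that genes on the opposite strand share with Col4a3 (563), Col9a3 (234), Col6a4 (127 and 162) and Col5a1 (99 and 113). Col3a1 shares 141 exonic bases with Gm47302, an annotated gene on its own strand, and counting by strand would not separate those reads.

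Transmembrane, short chain and anchoring chains had no common direction. Col23a1, a transmembrane chain, was at 9.06, 9.30, 9.69 and 9.85 in wild type and at 9.40, 9.65, 9.05 and 9.25 in ko (difference -0.14, 95% interval -0.55 to 0.28). Col13a1, at muscle and nerve junctions, was at 6.05, 6.54, 6.64 and 6.67 in wild type and at 6.57, 6.60, 6.64 and 6.49 in ko (difference 0.10). Col25a1 differed by 0.06, and the groups overlapped in all 3. The 3 transmembrane chains followed the type IV order in wild type, with wild type 1 lowest and wild type 4 highest in all 3, and their median of 0.06 was -0.18 without wild type 1. Col8a1, of the short chain networks of vessel walls, was at 8.39, 7.90, 8.67 and 8.35 in wild type and at 8.24, 8.56, 7.92 and 8.17 in ko (difference -0.11, 95% interval -0.51 to 0.30), and Col8a2, its partner, at 6.15, 6.10, 6.25 and 6.46 in wild type and at 6.02, 6.30, 6.32 and 6.25 in ko (difference -0.02). Col7a1, which anchors epithelia to the tissue below, was at 4.56, 4.65, 4.86 and 4.83 in wild type and at 4.72, 4.70, 4.59 and 4.69 in ko, a difference of -0.05. Col28a1, of the nervous system, was at 6.14, 6.54, 6.74 and 6.93 in wild type and at 6.82, 6.74, 6.72 and 6.75 in ko (difference 0.17), so that wild type 1 was lowest and wild type 4 highest.

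Below the filter were 7 chains, Col2a1, Col10a1, Col19a1, Col26a1, Col9a1, Col17a1 and Col6a6. Col2a1, Col10a1, Col19a1 and Col26a1 had mean rlog values below 0 in both groups, and none of the 7 was listed at 0. Col2a1 and Col10a1 are cartilage chains, and Col17a1 belongs to the hemidesmosomes of stratified epithelia.

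By level per kilobase, the order in wild type after Col3a1 was Col6a1 (9.51 ± 0.30), Col4a1 (9.38 ± 0.43), Col1a2 (9.20 ± 0.22), Col6a2 (9.0 ± 0.18), Col4a2 (8.72 ± 0.47), Col1a1 (8.21 ± 0.37) and Col18a1 (8.11 ± 0.20; SD, n = 4 each, log2 level). Col3a1 stood above Col6a1, and Col4a2 above Col1a1, by more than either gene's SD. The other neighbours in this order were no further apart than the larger of their SDs. In ko, Col1a2 (9.77) stood above Col4a1 (9.61), and Col1a1 (9.04) above Col4a2 (9.0).

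Differences between chains within a library show whether one chain differed between the groups more than another, since both values come from the same RNA. The gap of Col1a1 to Col4a1 was -0.92, -1.28, -1.05 and -2.06 in wild type and -0.84, -0.86, -0.50 and -0.69 in ko, without overlap between the groups. Fibrillar Col1a1 was higher relative to basement membrane Col4a1 in ko by 0.61 (exact two-sided permutation p = 0.0286, the smallest that 70 assignments allow; 0.171 after Benjamini-Hochberg adjustment over the 6 pairs tested). Wild type 4 had the widest gap, and without it the difference was 0.36.

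The type I partners differed by 0.26 in the same sense, Col1a1 minus Col1a2 being -0.86, -0.80, -0.63 and -1.08 in wild type and -0.64, -0.60, -0.51 and -0.56 in ko (exact permutation p = 0.0571, adjusted 0.171). Col3a1 minus Col1a1 differed by -0.13 (exact permutation p = 0.0857, adjusted 0.171). For Col5a1 and Col5a2, Col4a1 and Col4a2, and Col6a1 and Col6a2 the gaps differed by 0.03, -0.05 and -0.08 (exact permutation p = 0.8, 0.314 and 0.629). Col4a1 minus Col4a2 stayed between 0.60 and 0.79 in all 8 libraries, while the wild type libraries spanned 0.95 for Col4a1 and 1.07 for Col4a2.

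**Figure D4:**
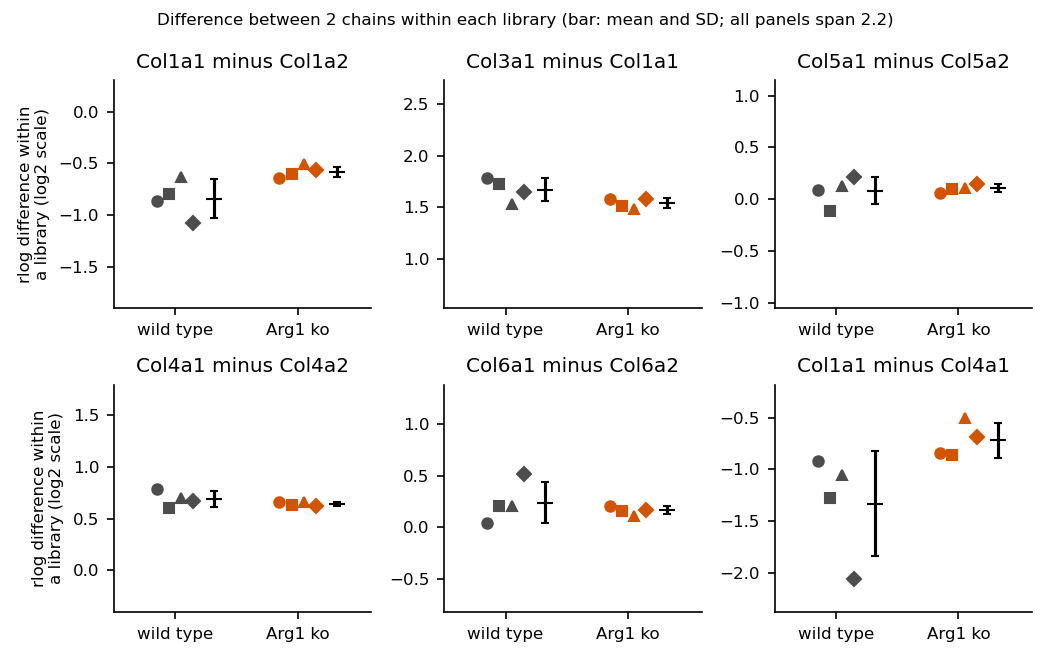
Difference between the rlog values (log2 scale) of 2 chains within each library for 6 pairs, with 4 wild type and 4 Arg1 ko libraries per panel, marker shapes for library 1 to 4 and bars for the mean and SD. Groups do not overlap in the panel of Col1a1 minus Col4a1, from -2.06 to -0.92 in wild type and from -0.86 to -0.50 in ko.

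Without the library labelled wild type 3, 10 of the 37 chains (27.0%) were higher past the adjusted threshold in limma and none was lower, against 2.88% of 16371 genes higher and 3.3% lower. These were Col1a1, Col1a2, Col3a1, Col5a1, Col5a2, Col5a3, Col6a2, Col6a3, Col14a1 and Col15a1, with adjusted p from 0.0243 to 0.0345 and, over all alternatives computed, from 1.44e-05 to 0.819. The differences were then 1.01 for Col1a1, 0.83 for Col3a1, 0.68 for Col1a2 and 0.95 for Col6a3. In all 10 the library left out was the nearest of the wild type libraries to the ko mean, so that leaving it out widens the difference by construction. Leaving out any other single library gave no call. With limma's array weights, whose estimation did not converge and put most weight on wild type 2, 27 chains were called, all higher, against 34.0% of all genes called higher and 32.1% lower.

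Wild type 1 and 2 also held less of other long transcripts. A smooth term of transcript length, fitted over 16367 genes in each library, averaged -0.28, -0.167, 0.136 and 0.065 over the collagens in wild type 1 to 4 and 0.019 to 0.106 in ko, and the median longest transcript was 6450 bases for the tested collagens against 3192 for all genes. With that term taken out, 23 of 37 chains were higher (62.2%, against 48.5% of all genes), 13 had an unadjusted p under 0.05 on the higher side (35.1%, against 4.88%), and the median was 0.11. Of these 13, 11 were among the 13 without the correction, Col6a4 and Col6a5 having dropped out and Col4a5 and Col6a1 having come in. The groups were separate on the higher side in 7 chains (against 2.82%) and on the lower side in Col7a1 (against 1.94%). Col1a1 then differed by 0.71, Col3a1 by 0.59, Col1a2 by 0.46, Col5a1 by 0.29 and Col4a1 by 0.09. What part RNA length has in the collagen differences was not tested.

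The genes that make, receive and break down collagen did not all share the direction of the fibrillar chains, and no member of any of the 4 lists passed limma's adjusted test. Of 19 tested folding and hydroxylation genes 10 were higher and 9 lower, with a median of 0.01. At an unadjusted p under 0.05, 1 was higher and none lower, against 4.73% and 4.37% of all tested genes. That gene was the collagen chaperone Serpinh1, at 10.60 ± 0.28 in wild type and 10.93 ± 0.13 in ko (SD, n = 4). The prolyl hydroxylase subunit P4ha1 differed by 0.32 and the lysyl hydroxylase Plod2 by 0.28. Of 16 processing and crosslinking genes 13 were higher and 3 lower, with a median of 0.15. On the higher side, 2 had an unadjusted p under 0.05 (against 4.73% of all tested genes) and 3 had separate groups (against 2.36%). The procollagen peptidase Adamts14 was at 4.69 ± 0.08 in wild type and 4.96 ± 0.06 in ko, and the crosslinking oxidase Loxl2 at 9.09 ± 0.11 and 9.32 ± 0.08 (SD, n = 4), without overlap in either. Pcolce, an enhancer of procollagen cleavage, differed by 0.37. Lox, another crosslinking oxidase, went the other way, at 8.76 ± 0.42 in wild type and 8.36 ± 0.18 in ko. Its difference of -0.40 was the largest of the list in size.

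Of 9 collagen receptors 8 were higher, with a median of 0.18. With wild type 1 left out this median was 0.02, and with wild type 2 left out as well it was -0.01. The uptake receptor Mrc2, the only one with an unadjusted p under 0.05, was at 8.13 ± 0.09 in wild type and 8.37 ± 0.06 in ko (SD, n = 4), with groups that did not overlap. Of all tested genes, 4.73% were higher at this p and 2.36% had separate groups on the higher side. The collagen kinase receptor Ddr2 differed by 0.36 and the integrin chain Itga11 by 0.35. Of 11 breakdown genes 8 were lower and 3 higher, with a median of -0.09. The collagen-cutting cathepsin Ctsk was at 7.79 ± 0.24 in wild type and 7.46 ± 0.07 in ko, and Ctsl, another lysosomal cathepsin, at 12.71 ± 0.29 and 12.38 ± 0.03 (SD, n = 4), both with an unadjusted p under 0.05 and overlapping groups. The share of all tested genes lower at this p was 4.37%. This list also holds inhibitors of the proteases, and Timp1 (-0.34), Timp2 (-0.09) and Timp3 (-0.11) were among its lower genes.

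Markers of the cells that make collagen were compared for the same libraries. Of 9 fibroblast markers 7 were higher and 2 lower, with a median of 0.03 (0.11 without wild type 1, -0.01 after quantile normalisation), none had an unadjusted p under 0.05, and their summed log2 level ran from 14.02 to 14.27 in wild type and from 14.10 to 14.20 in ko. Dcn differed by -0.11, Dpt (dermatopontin) by 0.05 and Pdgfra (a growth factor receptor of fibroblasts) by 0.06, while Lum (lumican) differed by 0.31 and Fbln1 (fibulin 1) by 0.27. Within each library, Col1a1 minus Dcn lay between -3.05 and -1.91 in wild type and between -1.70 and -1.30 in ko. Col1a1 minus Pdgfra lay between -1.07 and -0.25 in wild type and between 0.10 and 0.61 in ko. Col1a1 minus Lum lay between 0.65 and 1.36 in wild type and between 1.41 and 1.66 in ko. The group means differed by 0.94 for Dcn, 0.77 for Pdgfra and 0.52 for Lum. These markers were chosen for this gap after their values were seen, and the gap was not tested. Col1a1 was the chain of largest difference, and its groups were already separate. Its gap to a marker of small difference therefore mostly repeats the Col1a1 difference.

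Smooth muscle markers had a median of 0.05 (8 genes, 5 higher; -0.05 without the library labelled wild type 3 and 0.17 after quantile normalisation), with summed levels of 16.57 to 17.07 in wild type and 16.75 to 16.93 in ko. Their genes of highest mean were Myh11 (0.29), Acta2 (-0.07) and Tagln (-0.14). Pericyte markers had a median of 0.12 (6 genes, 4 higher; 0.01 without wild type 1; summed level 13.98 to 14.51 and 13.84 to 14.06) and endothelial markers one of -0.11 (9 genes, 3 higher; 12.59 to 12.73 and 12.48 to 12.65). Enteric glia markers had a median of -0.04 (6 genes, 1 higher; 0.07 without wild type 1 and -0.20 without wild type 4) and macrophage markers one of 0.14 (8 genes, 5 higher). The macrophage genes of highest mean, C1qa (-0.16), C1qb (-0.19) and C1qc (-0.08), were lower. Rgs5, the pericyte gene of highest mean, differed by -0.30, and the pericyte median was -0.02 with the length correction. Epithelial markers had a median of -0.07 (9 genes, 3 higher; summed level 17.76 to 18.19 and 17.81 to 18.05), which was 0.12 after quantile normalisation. The 5 tested neutrophil markers had a median of -0.60 (-0.27 without wild type 2), 4 were lower, and their summed level ran from 8.63 to 10.65 in wild type and from 8.65 to 9.12 in ko. At an unadjusted p under 0.05, Ly6g of the neutrophil list (-1.35), the pericyte channel gene Kcnj8 (-0.40), the endothelial junction gene Cldn5 (-0.35) and the keratin Krt18 (-0.35) were lower, and the macrophage gene Adgre1 (0.35) and the glial factor Foxd3 (0.34) higher. Over all tested genes, 4.37% were lower and 4.73% higher at this p. Without the library labelled wild type 3, Ly6g, Kcnj8, Krt18 and, of the breakdown genes, Ctsl passed limma's adjusted test on the lower side, and no other gene of the 12 lists passed it. None of the markers was listed at 0, and their part in the collagen differences was not tested.

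**Figure D5:**
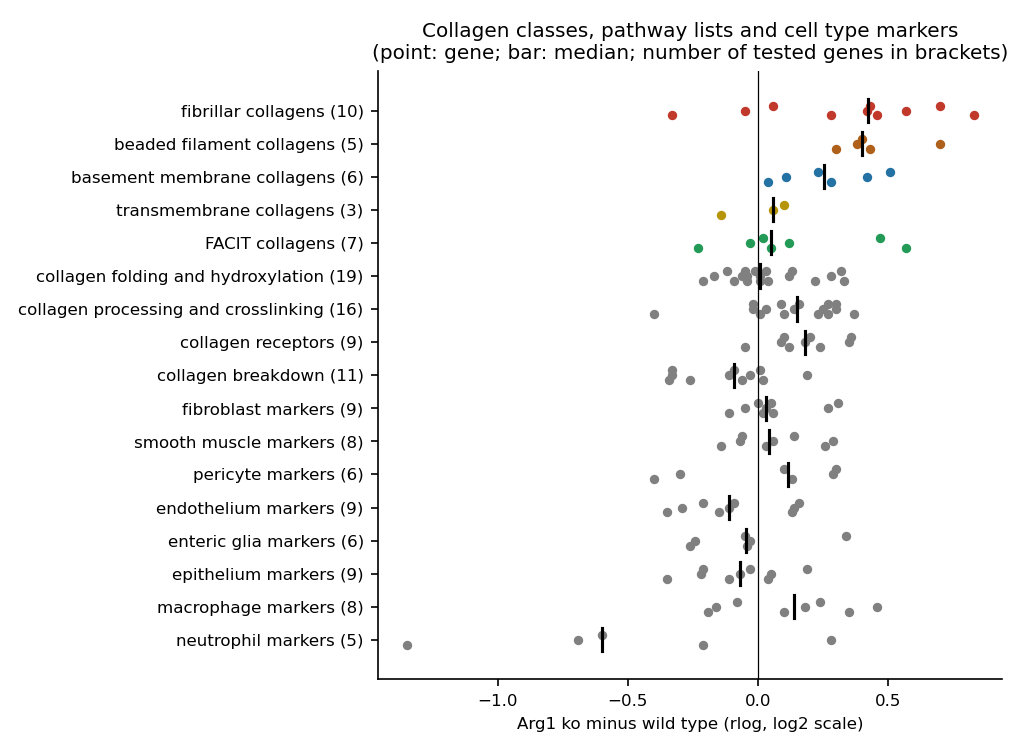
Arg1 ko minus wild type difference (rlog, log2 units) of every tested gene of 5 collagen classes, 4 lists of collagen-related genes and 8 marker lists; points are genes, bars are medians, and the number of tested genes is in brackets. Medians are 0.43 for fibrillar and 0.40 for beaded filament chains, against 0.01 for folding and hydroxylation genes and 0.03 for fibroblast markers.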

How the data were processed

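Colon RNA of 8 mice was sequenced from libraries made with a stranded mRNA kit, per the labels' protocols. The submitters' processing notes name the build GRCm38, DESeq2 1.16.1, featureCounts, Subread 1.5.3, STAR 2.5.2b and BWA 0.7.14-r1136. No source used here names the annotation release or the strand setting. The authors deposited 1 table of rlog values per gene and library, on a log2 scale.

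GENCODE vM21 (GRCm38) gave symbols for 53360 IDs, and coordinates are 1-based. The test was limma 3.58.1 in R 4.3.3 on non-constant genes with a mean of 3 or more (moderated, variance trend, two-sided, Benjamini-Hochberg over all 16380 genes at 0.05). The script was tested on simulated data with equal spread in both groups, unlike these data. There it called 28.4% of log2 changes of 0.5, 76.1% of those of 1 and 95.5% of those of 2. Arg1 and 6 pairs of chains had exact permutation tests. The labels speak of separate mice, and all p-values rest on the spread between libraries. For limma this is a common variance per gene for both groups, moderated over all genes. The wild type SD was larger than that of ko for 90.9% of all tested genes, so a common variance describes neither group well. Members and lists were chosen with earlier results of these data known. Values in every library are given for the chains of smallest p in each class and those in the pairs, and list genes are named by smallest p or, for markers, highest mean. Of 118 list symbols 117 were matched. Protein features were not analysed here. The alternatives were other filters, library scalings, array weights and leaving out libraries. Those without wild type 1 and 2 and with a length correction were added after seeing the data.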

Additional observations from a re-analysis of the deposited data

Results flagged for a closer look

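A library that stood far from the other 3 of its group, by Dixon's criterion at the 95% level, was found in 3 of 74 groups of collagen values, where chance gives about 3.7. Col1a2 was at 11.94 in the library labelled wild type 3, against 11.49 to 11.53 in the other wild type libraries. Col15a1, the multiplexin, was at 9.56 in Arg1 ko 1, against 9.39 to 9.42 in the other ko libraries. Col22a1, a FACIT chain of tissue junctions, was at 3.82 in Arg1 ko 1, against 3.71 to 3.72 in the other ko libraries, near the filter.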

How the results depend on the processing

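No paired analysis was possible because replicates were numbered by accession and the labels' own sample numbers are not shared between the groups. The threshold of 0.1 gave no call. Without a filter the medians were 0.14 (all collagens), 0.02 (FACIT), -0.02 (short chain), 0.10 (other) and -0.40 (neutrophil), and with a mean of at least 5 that of FACIT chains was 0.12. Aligned library medians took folding and hydroxylation to -0.02 and quantile normalisation took epithelial markers to 0.12 and smooth muscle markers to 0.17. Array weights, whose estimation did not converge and which put most weight on wild type 2, gave 10836 calls over all genes. They called 27 collagens, all higher, against 34.0% of all genes higher and 32.1% lower, and put Arg1 at -0.48. Among the chains given in every library, they turned Col9a3 (0.08), Col8a1 (0.29), Col8a2 (0.12), Col7a1 (0.03) and Col23a1 (0.02) positive. Col11a1, at -0.05 in the main fit, was among the 27 called higher. With 1 library left out, calls over all genes ran from 0 to 1012, collagens called from 0 to 10, and separate groups on the higher side from 8 to 13. The 10 were called without the library labelled wild type 3 (against 2.88% of all genes higher), and the 13 were separate without wild type 4 (against 3.75%). Medians then ran from -0.01 to 0.02 for folding, 0.09 to 0.18 for processing, -0.17 to -0.03 for breakdown genes, 0.02 to 0.29 for receptors, 0.00 to 0.11 for fibroblast, -0.05 to 0.11 for smooth muscle, 0.01 to 0.19 for pericyte, -0.15 to -0.04 for endothelium, -0.20 to 0.07 for enteric glia, 0.10 to 0.20 for macrophage and -0.84 to -0.27 for neutrophil markers. Arg1 ran from -0.51 to -0.31, Col9a3 from -0.36 to 0.02, Col8a1 from -0.25 to 0.01, Col8a2 from -0.06 to 0.06, Col13a1 from -0.04 to 0.16, Col5a1 minus Col5a2 from -0.03 to 0.07 and Col6a1 minus Col6a2 from -0.15 to 0.01. Without wild type 1 and 2, which leaves 2 wild type libraries, 8 chains were higher at an unadjusted p under 0.05 (against 6.28% of all genes). Lower were 2, Col23a1 and Col24a1 (against 6.8%), and 7 lay wholly below wild type (against 11.2%). Medians were -0.01 (all collagens), 0.20 (fibrillar), -0.08 (basement membrane), 0.25 (beaded filament), -0.18 (anchoring fibril), -0.35 (transmembrane), 0.21 (multiplexin), -0.08 (other), 0.06 (processing), 0.19 (fibroblast) and -0.14 (pericyte). Then Col4a2 (-0.06), Col4a1 (-0.10), Col12a1 (-0.05), Col16a1 (-0.01), Col13a1 (-0.08), Col28a1 (-0.08) and Col5a1 minus Col5a2 (-0.06) turned negative. So did Col27a1 (-0.16), Col24a1 (-0.28), Col25a1 (-0.35), Col20a1 (-0.15), Col4a3 (-0.17) and Col4a4 (-0.14). With the length correction 1 chain (Col7a1) lay wholly below wild type (against 1.94% of all genes). Medians were 0.25 (beaded filament) and -0.24 (anchoring fibril), and Col5a1 minus Col5a2 was -0.00267. Array weights favour some libraries by their construction, and leaving out libraries is a refit without them. Leaving out wild type 1 and 2, the wild type libraries lowest in collagens on average, lowers the mean collagen difference by construction. The cause of these changes was not tested for any setting. The depth of the libraries is unknown, and rlog lowers differences of weak chains such as Col6a5 and Col4a3.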

Other observations

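Wild type 1 held several cartilage-type chains, but not all, at higher levels than any other library, while it was the lowest of the 8 libraries for 21 of the 37 tested chains, against 28.8% of all tested genes. Col11a1 was at 6.89 in wild type 1, against 5.73 to 6.22 in the other 7 libraries. Col11a2, which pairs with it in type XI, was at 6.10, against 4.89 to 5.29. Col9a3, a type IX chain found on cartilage fibrils, was at 4.75, against 3.60 to 4.02, and Col9a1, which was below the filter, was at 3.36, against 2.32 to 2.79. Col9a2, the remaining type IX chain, did not follow, at 5.71 in wild type 1 and 5.63 to 5.95 in the others, nor did Col10a1, at -1.74 against -1.75 to -1.71. Col22a1 was at 3.84, against 3.58 to 3.82. Col2a1, the main cartilage collagen, was between -0.78 and -0.68 in all 8 libraries. Col11a1, Col11a2, Col9a3 and Col22a1 were the only tested collagens highest in wild type 1, a place that 26.5% of all tested genes had. They were picked after their values were seen, and no test was made.

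The spread between libraries was larger in wild type than in Arg1 ko for 36 of 37 tested chains (97.3%), as it was for 90.9% of all tested genes. The median SD of the chains was 0.323 in wild type and 0.106 in ko, against 0.258 and 0.0960 over all genes. Among tested chains the narrowest ko values were those of Col5a2 and Col6a1, each with an SD of 0.02, where the same genes had wild type SDs of 0.29 and 0.30.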
